A study of Rattus norvegicus with 9 samples.

Results

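Cxcl1, Cxcl2, Cxcl3 and Cxcl6 are the neutrophil-attracting CXC chemokines that primary rat osteoblasts were measured for here, and they are 4 of the 19085 genes in the deposited table. They were chosen by gene name and by their own levels in all 3 groups of the study, that is their level, their share of the summed level and how far they fell below control with MEK inhibition. Their levels and fold changes are therefore given as a description, with no test. Each was listed once, as Cxcl1 (ENSRNOG00000002802), Cxcl2 (ENSRNOG00000002792), Cxcl3 (ENSRNOG00000028043) and Cxcl6 (ENSRNOG00000002843, for which RefSeq gives Cxcl5 as a synonym), and all 4 had enough counts to enter the fit across genes.

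Messenger RNA was sequenced in 9 libraries from calvarial osteoblasts of male Sprague-Dawley rats aged 24 hours, cultured for 7 days in osteogenic induction medium with dexamethasone, ascorbic acid and β-glycerophosphate. The Control group (3 libraries) received that medium alone, the Thrombin group (3 libraries) received thrombin at 20 U/mL in it, and the PD03 group (3 libraries) received thrombin at 20 U/mL together with PD0325901, an inhibitor of the kinase MEK, at 0.1 µM. No group received PD0325901 without thrombin, so PD03 against thrombin is the comparison that isolates the inhibitor, and PD03 against control differs by both agents. A protocol in the sample labels gives PD0325901 as 0.1 mM for short exposures, and the tissue field of the labels says knee where their growth protocol says calvaria. The libraries held 15447832 to 19841468 counts each. Of 9 osteoblast markers, 6 reached 1 CPM (the count scaled to library size with TMM factors) in the mean of all libraries. Col1a1 led with 4.18% to 5.05% of all counts in the Control and Thrombin libraries and 6.78% to 6.96% in the PD03 libraries. The late markers Bglap, Ibsp and Dmp1 lay under 0.2 CPM in every group mean. Markers of this list did not move together. Runx2 (42.8, 51.1 and 32.1 CPM in the Control, Thrombin and PD03 groups) and Spp1 (63.6, 185 and 53.1 CPM) were highest with thrombin and lowest with PD03. Col1a1 and Alpl (1.67, 0.345 and 3.10 CPM in the same order) were lowest with thrombin and highest with PD03. The methods call the samples of a group independent, and neither source says that they came from separate animals or cultures, so p-values measure only the spread between these samples, which may be technical.

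These chemokines carry a Glu-Leu-Arg (ELR) motif before the first cysteines and act on the receptor CXCR2 of neutrophils, drawing them out of the blood along a gradient. Stromal cells such as fibroblasts and osteoblasts release them within hours of interleukin-1, tumour necrosis factor or bacterial products. Their genes stand together in a cluster and are switched on through NF-κB, and their messenger RNAs are short-lived because AU-rich elements near their 3′ ends mark them for decay. Thrombin, the protease of blood clotting, acts on cells by cutting protease-activated receptors such as PAR1 (gene F2r), which activate the MEK-ERK kinase cascade among other routes. Cxcl1, Cxcl2 and Cxcl3 are similar paralogs, and no source says how reads matching more than 1 place were handled, so counts could be split among them.

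Promoter sequences of 3 of the 4 chemokines were matched in RefSeq by symbol, and they are shown because the site they have in common is the one through which this class of gene is known to be induced. The 150 bases before the start of each gene are printed 5′ to 3′ along the gene (RefSeq, assembly GRCr8, minus strand), with capitals marking an NF-κB-like motif spelled GGGNNTTTCC, searched on both strands.
Cxcl1, chr14:17479322-17479471: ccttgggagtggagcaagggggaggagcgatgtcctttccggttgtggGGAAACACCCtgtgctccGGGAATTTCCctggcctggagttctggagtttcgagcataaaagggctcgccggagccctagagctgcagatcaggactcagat
Cxcl2, chr14:17467256-17467405: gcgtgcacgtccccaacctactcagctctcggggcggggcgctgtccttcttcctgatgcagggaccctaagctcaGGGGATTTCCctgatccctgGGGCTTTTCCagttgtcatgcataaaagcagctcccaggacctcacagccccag
Cxcl6, chr14:17596418-17596567: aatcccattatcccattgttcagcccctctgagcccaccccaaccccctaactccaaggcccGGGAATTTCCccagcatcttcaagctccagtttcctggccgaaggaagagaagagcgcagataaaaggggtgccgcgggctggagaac

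The Cxcl1 promoter held the motif at bases 102 to 93 upstream of the start, on the opposite strand, and again at bases 84 to 75. The Cxcl2 promoter held it at bases 74 to 65 and at bases 54 to 45, and the Cxcl6 promoter held it at bases 88 to 79. The match in Cxcl6 has the same 10 letters as the second match in Cxcl1. Of 33469 rat promoter windows of 300 bases in the RefSeq table, 1.53% held this motif, and 0.795% held it within the 150 bases printed. A TATA-like motif, ATAAAAG, began 47, 33 and 28 bases before the start of Cxcl1, Cxcl2 and Cxcl6 in turn, and 5.69% of all windows held it. An Sp1-like motif, GGGCGG, was found 119 bases upstream of Cxcl2 and 157 bases upstream of Cxcl6, which is beyond the part printed, and 33.1% of all windows held it. The AP-1-like motif TGANTCA, present in 7.33% of all windows, was in none of these 3 windows. No motif overlapped another. A match describes letters only.

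Levels were compared between genes in FPKM, the deposited count divided by gene length and library total, since CPM does not allow for length. Cxcl6 and Cxcl1 were the abundant pair, Cxcl3 stood between, and Cxcl2 was near the limit of detection with PD03. Cxcl6, also known as LIX in rodents, was the most abundant of the 4 in every library. It measured 305, 285 and 305 FPKM in the Control libraries, 936, 996 and 1007 FPKM in the Thrombin libraries and 102, 114 and 106 FPKM in the PD03 libraries. By mean level Cxcl6 ranked 157 among all listed genes in the Control group, 31 in the Thrombin group and 498 in the PD03 group.

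Cxcl1, first described in rat as CINC and related to human GRO-alpha, measured 299.7, 243 and 253 FPKM in the Control libraries, 562, 563 and 550 FPKM in the Thrombin libraries and 85.9, 105.8 and 100.3 FPKM in the PD03 libraries. The Control values were more spread than the Thrombin values, with a coefficient of variation of 10.4% against 1.11% in CPM, and the first Control library was the high one. Cxcl1 ranked 184, 67 and 545 among all listed genes in the Control, Thrombin and PD03 groups. The ranges of Cxcl6 and Cxcl1 overlapped in the Control and PD03 groups and stood apart in the Thrombin group.

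Cxcl3 measured 20.6, 20.3 and 19.9 FPKM in the Control libraries, 129, 129.75 and 140.2 FPKM in the Thrombin libraries and 4.45, 5.14 and 5.76 FPKM in the PD03 libraries. Its rank moved further than that of any other member, from 3167 in the Control group to 419 in the Thrombin group and 7617 in the PD03 group. Cxcl2, known as MIP-2 and first described in macrophages, was far lower at 0.793, 1.15 and 1.15 FPKM in the Control libraries, 2.83, 2.97 and 2.98 FPKM in the Thrombin libraries and 0.0470, 0.115 and 0.0541 FPKM in the PD03 libraries. These PD03 values rest on 1, 2 and 1 counts, against 15, 19 and 19 counts in the Control libraries and 50, 57 and 54 in the Thrombin libraries. For Cxcl2 as for the others, no library of 1 group fell within the range of another group. Of all tested genes, 20.1% had every Thrombin library above every Control library. Every PD03 library was below every Thrombin library for 27.1% and below every Control library for 24.0%. Since these levels chose the members, nothing is read from the separation. In these bulk libraries, fewer cells that make a chemokine and less of its RNA per cell cannot be told apart.

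**Figure D1:**
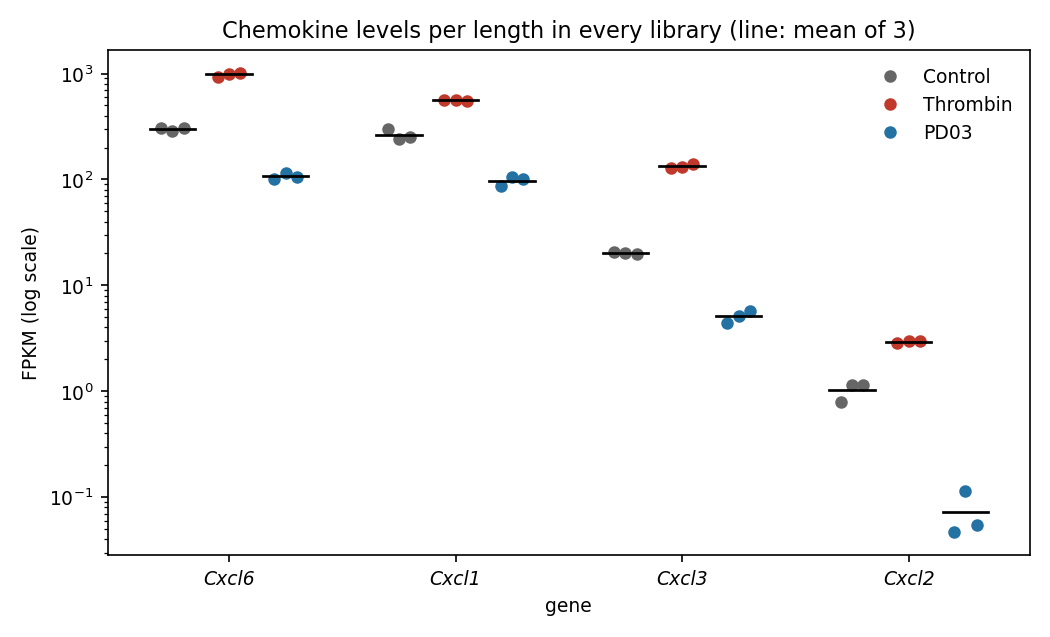
Level of each chemokine (FPKM, log axis) in each of the 3 Control, 3 Thrombin and 3 PD03 libraries, with a line at each group mean. For every chemokine the Thrombin points lie above the Control points and the PD03 points below them, from about 980 FPKM for Cxcl6 with thrombin down to 0.072 FPKM for Cxcl2 with PD03.

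Summed over the 4 chemokines, the level was 585 ± 38.5 FPKM (SD, n = 3) in the Control group, 1674 ± 38.2 in the Thrombin group and 209.7 ± 16.5 in the PD03 group. That sum made up 0.164%, 0.469% and 0.0610% of all FPKM in those groups. The Thrombin mean was 2.86 times the Control mean, and the PD03 mean was 7.98 times lower than the Thrombin mean and 2.79 times lower than the Control mean.

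The makeup of the sum differed with thrombin. Cxcl6 held 51.1% ± 2.08 (SD, n = 3) of it in the Control group, 58.5% ± 0.957 in the Thrombin group and 51.2% ± 1.60 in the PD03 group. The share of Cxcl1 was 45.3% ± 2.26, 33.4% ± 1.08 and 46.4% ± 1.46 in the same order. Thus Cxcl1 held less of the sum in every Thrombin library than in any other library, while its Control and PD03 shares overlapped. Cxcl3 held 3.48% ± 0.205 of the sum in the Control group, 7.94% ± 0.288 in the Thrombin group and 2.44% ± 0.242 in the PD03 group, 3 ranges that did not overlap. Cxcl2 held 0.178% ± 0.0446, 0.175% ± 0.00111 and 0.0337% ± 0.0151. Counts without the length correction gave the same order of the 4 genes with a larger part for Cxcl6, whose length implied by the deposited values (1710 bases) was longer than that of Cxcl1 (1004 bases), Cxcl2 (1072 bases) or Cxcl3 (1563 bases).

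**Figure D2:**
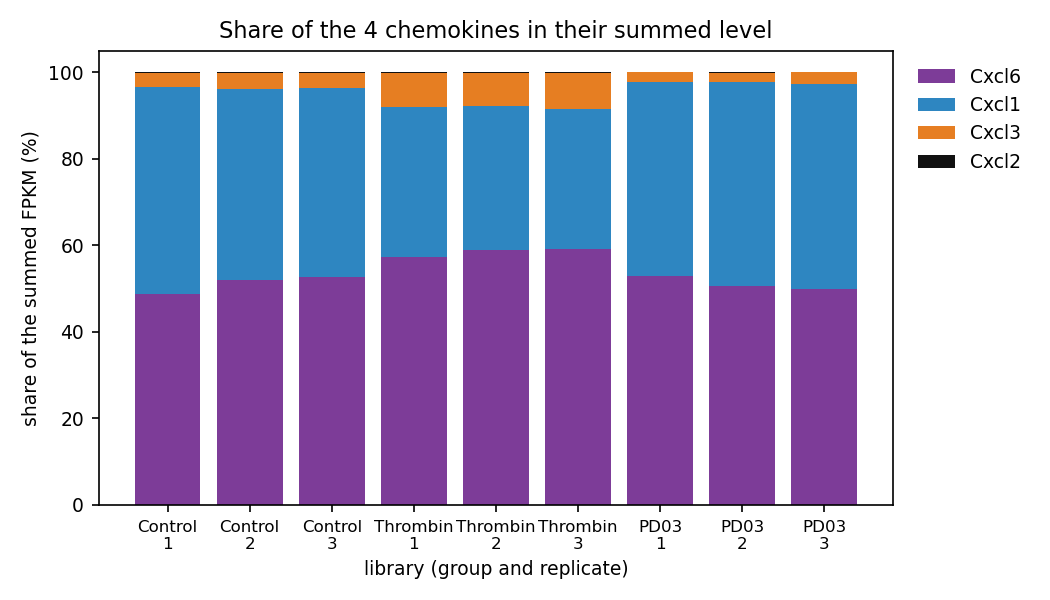
Share of each chemokine in the summed FPKM of the 4 (percent, bars stacked to 100), for each of the 9 libraries. Cxcl1 holds 45.3% on average in the Control libraries, 33.4% in the Thrombin libraries and 46.4% in the PD03 libraries, and Cxcl3 is widest with thrombin at 7.94%. Cxcl2 is too thin to see, at 0.178% or less on average.

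Ratios within a library do not depend on how libraries are scaled. The ratio of Cxcl6 to Cxcl1 in FPKM was 1.13 ± 0.0999 (SD, n = 3) in the Control group, 1.76 ± 0.0841 in the Thrombin group and 1.11 ± 0.0704 in the PD03 group. The ratio with PD03 lay within the Control range, a log2 difference of -0.032 against a pooled SD of 0.11, so the falls of Cxcl6 and Cxcl1 below control were not separated from each other beyond the spread between libraries. Cxcl1 was 13.0 times as abundant as Cxcl3 in the Control libraries, 4.20 times in the Thrombin libraries and 19.0 times in the PD03 libraries. From control to PD03, the log2 ratio of Cxcl3 to Cxcl1 differed by -0.55 against a pooled SD of 0.13, with no overlap. The log2 ratio of Cxcl2 to Cxcl3 differed by -1.94 between PD03 and control (pooled SD 0.53, no overlap) and by -0.75 between PD03 and thrombin (pooled SD 0.48), where the libraries overlapped.

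Fold changes were taken from an edgeR quasi-likelihood fit of all 9 libraries on TMM-scaled counts, with the standard error (SE) of each log2 fold change. In thrombin against control, Cxcl3 was higher by 2.73 on the log2 scale (SE 0.06), a ratio of 6.63, and 5 of the 13256 tested genes had a larger value. Cxcl6 was higher by 1.73 (SE 0.04), a ratio of 3.32, Cxcl2 by 1.53 (SE 0.29) and Cxcl1 by 1.09 (SE 0.05), a ratio of 2.13. A gene is described as called at an adjusted p-value under 0.05 with an absolute log2 fold change above 0.58. Among all tested genes 2.62% were called higher and 5.44% lower in this comparison, and 20.1% had every Thrombin library above every Control library, as the 4 chemokines did. Because these values chose the members, nothing is read from that count.

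In PD03 against thrombin, the log2 fold change was -5.16 (SE 0.47) for Cxcl2, -4.61 (SE 0.07) for Cxcl3, -3.09 (SE 0.04) for Cxcl6 and -2.42 (SE 0.05) for Cxcl1. PD03 libraries held 24.3 times less Cxcl3, 8.54 times less Cxcl6 and 5.36 times less Cxcl1 than Thrombin libraries, as ratios of mean CPM. For Cxcl2, 4 counts over the PD03 libraries stood against 161 over the Thrombin libraries, which is 2.56% of the thrombin level with an exact 95% interval of 0.689% to 6.68% that covers counting error only. One tested gene had a lower value than Cxcl2, 3 had a lower value than Cxcl3, 21 than Cxcl6 and 44 than Cxcl1. In this comparison 6.31% of tested genes were called lower and 9.61% higher, and 27.1% had every PD03 library below every Thrombin library, from which nothing is read here either.

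PD03 did not bring the chemokines back to their control level but below it. Of the control mean in CPM, 39.8% remained for Cxcl1, 38.9% for Cxcl6 and 27.3% for Cxcl3, with log2 fold changes of -1.33 (SE 0.05), -1.36 (SE 0.04) and -1.88 (SE 0.08). For Cxcl2 the log2 fold change was -3.63 (SE 0.57), and pooled counts gave 7.46% of control with an exact 95% interval of 1.96% to 20.2% for counting error. The depth of the fall below control thus ran from Cxcl2 through Cxcl3 to Cxcl6 and Cxcl1, and the last pair were not separated. The place of Cxcl2, which rests on 4 counts, turned with a constant added to FPKM. With 1 added its fall below control was the smallest, at -0.92 beside -1.81 for Cxcl3, -1.47 for Cxcl6 and -1.44 for Cxcl1, and with 0.1 added its fall in PD03 against thrombin (-4.16) was behind that of Cxcl3 (-4.68). The order of the rise with thrombin was different, with Cxcl3 first and Cxcl1 last, or Cxcl2 last (0.96) with 1 added to FPKM. In PD03 against control 4.9% of tested genes were called higher and 4.07% lower, and 24.0% had every PD03 library below every Control library, while 10 tested genes had a lower value than Cxcl2, 59 than Cxcl3, 131 than Cxcl6 and 137 than Cxcl1. Since all 3 comparisons share groups, their values for a gene are given side by side and not correlated.

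**Figure D3:**
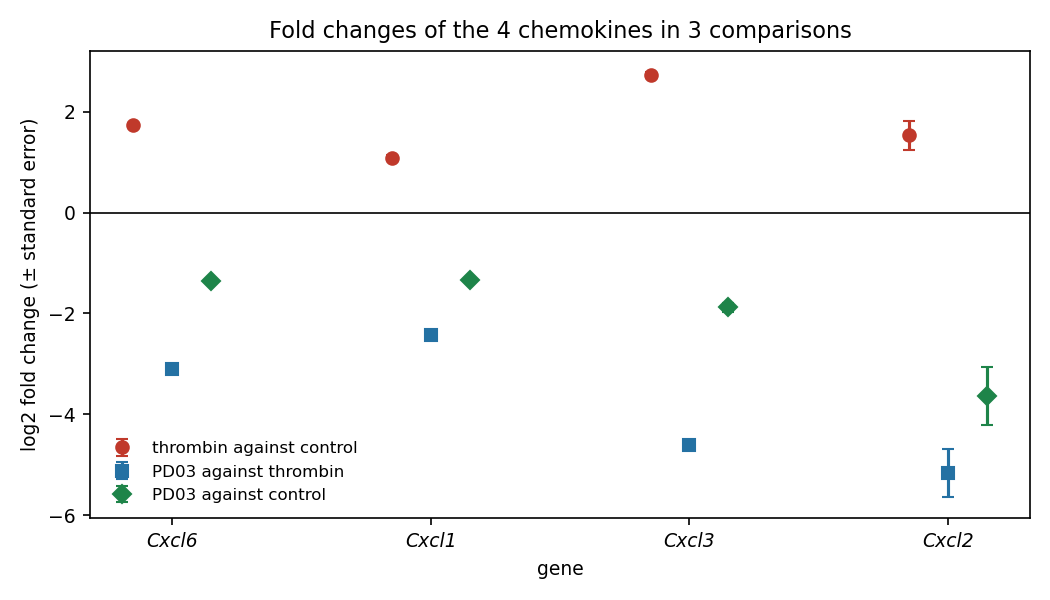
Log2 fold change of each chemokine in the 3 comparisons, with bars for the standard error (hidden behind most points). Thrombin against control runs from 1.09 for Cxcl1 to 2.73 for Cxcl3, and PD03 against control runs from -1.33 for Cxcl1 to -3.63 for Cxcl2.

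Macrophages also make these chemokines, so markers of other cells were read in the same libraries. Of 7 macrophage or monocyte markers, Cd14 alone reached 1 CPM in the mean of all libraries, and the summed level of the 7 was 20.7 to 23.5 CPM in the Control libraries, 29.1 to 32.7 in the Thrombin libraries and 17.5 to 19.2 in the PD03 libraries, so that the sum, most of which is Cd14, moved in the same order as the chemokines. Csf1r was highest with PD03, at 0.440, 0.746 and 1.23 CPM in the Control, Thrombin and PD03 groups. So were Lyz2 at 0.169, 0.0983 and 0.351 CPM and Ptprc at 0.0392, 0.0758 and 0.147 CPM. Itgam (0.292, 0.402 and 0.254 CPM) moved in the order of the chemokines. Cd68 (0.623, 0.477 and 0.439 CPM) and Adgre1 (0.253, 0.192 and 0.167 CPM) were highest in the Control group and lowest with PD03. The markers other than Cd14 had at most 26 counts in any library. The defining markers Ptprc (CD45) and Adgre1 (F4/80) were each under 0.3 CPM in every group mean. The 4 of 8 neutrophil markers that the table lists summed to 0.106 to 0.658 CPM. The 4 of 5 endothelial markers listed summed to 7.29 to 9.75 CPM in the Control and Thrombin libraries and 12.02 to 14.0 in the PD03 libraries. The part of such cells in the chemokine values was not tested.

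The receptors Cxcr1 and Cxcr2, through which these chemokines act, have no value here, since the table does not carry those symbols. Genes without reads and genes left out cannot be told apart by that. Of the 7 genes listed as paralogs and receptors, Cxcl15 was not carried either, and neither was Cxcl5, the symbol that RefSeq gives as a synonym of Cxcl6, while the ligand Ppbp and the decoy receptor Ackr1 had at most 1 and 7 counts in any library. The scavenging receptor Ackr3, which binds CXCL12, was the gene of this list that had enough counts for a test. Ackr3 moved opposite to the chemokines, at 206 ± 9.30 CPM (SD, n = 3) in the Control group, 123 ± 6.37 in the Thrombin group and 268 ± 13.1 in the PD03 group. It fell with thrombin (log2 fold change -0.75, SE 0.05, adjusted p = 1.2e-17) and rose in PD03 against thrombin (1.13, SE 0.04, adjusted p = 3.4e-24).

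As a group, the other CXC ligands and the CX3C ligand did not share the chemokines' rise with thrombin or fall in PD03 against thrombin. Among 6 tested of 10 listed, 1 was called higher and 4 lower in thrombin against control, beside 2.62% and 5.44% of all tested genes, with a median log2 fold change of -0.87 beside -0.01 for all tested genes. In PD03 against thrombin 1 was called higher and 2 lower, beside 9.61% and 6.31%, with a median of 0.13 beside 0.01. Most were lower in PD03 against control, where 1 was called higher and 4 lower, beside 4.9% and 4.07%. The median there was -0.72 beside -0.0039. Of the 4, Cx3cl1 (-1.05) was not called without Control replicate 1 (-0.82). Cxcl16, a membrane-bound ligand for T cells, was the member that moved the same way as the neutrophil-attracting ligands, at 23.9 ± 1.18 CPM in the Control group, 40.7 ± 2.65 in the Thrombin group and 13.5 ± 1.06 in the PD03 group (log2 fold change in PD03 against thrombin -1.60, SE 0.08, adjusted p = 3.3e-20). Cxcl14, a ligand of epithelia and stroma, was the reverse, at 11.6 ± 0.481, 5.15 ± 0.813 and 20.5 ± 1.47 CPM (1.98 in PD03 against thrombin, SE 0.12, adjusted p = 4.7e-18). Cxcl10, an interferon-induced ligand for T cells, was lower again with PD03 than with thrombin (-1.83, SE 0.45, adjusted p = 0.00081). Its fall with thrombin (-0.87, adjusted p = 0.041) was lost with DESeq2 (-0.86), without Control replicate 2 (-0.82) or 3 (-0.72) and without Thrombin replicate 1 (-0.98) or 2 (-0.48). Cx3cl1 fell with thrombin (-1.06, SE 0.30, adjusted p = 0.0053), a call lost without Control replicate 1 (-0.84). Cxcl12, named after its values were seen, was the most abundant of these ligands in CPM. It was at 1399 ± 8.74 in the Control group, 770 ± 15.8 in the Thrombin group and 913 ± 38.5 in the PD03 group.

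Genes known to depend on MEK-ERK output were read to see whether the inhibitor's pathway moved in the libraries where the chemokines fell. All 18 of 18 were tested. In PD03 against thrombin 14 were called lower, beside 6.31% of all tested genes, and none higher by edgeR, DESeq2 or limma, beside 9.61%. In edgeR 1 was higher at an unadjusted and at an adjusted p under 0.05, below the fold threshold. The median log2 fold change was -0.98. In PD03 against control 13 were called lower, beside 4.07%, with a median of -0.96. Egr1, an immediate-early transcription factor, fell from 243 ± 68.6 CPM with thrombin to 18.7 ± 1.33 with PD03 (-3.70, SE 0.12, adjusted p = 1.7e-27), and Phlda1 (-2.70, SE 0.08), the ETS factor Etv4 (-2.62, SE 0.15) and the ERK phosphatase gene Dusp6 (-2.40, SE 0.12) also fell. In thrombin against control, where all 4 chemokines were higher, 2 of the 18 were called higher, beside 2.62% of all tested genes. They were Phlda1 (0.98, SE 0.07, adjusted p = 9.5e-16) and Dusp4 (0.94, SE 0.13, adjusted p = 2.1e-07), and the median of the list was 0.11. At an adjusted p-value under 0.05 without regard to size 5 were higher and 5 lower, where 3808 of 13256 tested genes passed in either direction. Egr1 and Dusp6 had log2 fold changes of -0.48 and -0.40 in that comparison. Egr1 was called lower there without Thrombin replicate 1 (-0.73).

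The NF-κB genes, which encode the factor whose motif stands in the chemokine promoters and its regulators, were mostly under the fold threshold. All 16 of 16 were tested, and none was called in thrombin against control by edgeR, DESeq2 or limma. There 2.62% of all tested genes were called higher and 5.44% lower. In edgeR 8 of the 16 had an unadjusted p under 0.05 (5 higher and 3 lower). At an adjusted p under 0.05 without regard to size 4 were higher and 2 lower, where 3808 of 13256 tested genes passed. The median log2 fold change of the 16 was 0.01. Rela, encoding the subunit p65, was at 88.2 ± 6.69 CPM in the Control group, 87.5 ± 3.56 in the Thrombin group and 88.5 ± 0.479 in the PD03 group. In PD03 against thrombin 9 of the 16 were lower and 2 higher at an adjusted p-value under 0.05, 1 of them past the fold threshold. At that p-value without regard to size, 6608 of all 13256 tested genes passed in either direction. The median of the 16 was -0.26 beside 0.01 for all tested genes. Nfkb1 (p50) was at -0.32 (SE 0.04), the inhibitor gene Nfkbia at -0.29 (SE 0.06) and Nfkbiz, which encodes a nuclear cofactor, at -0.38 (SE 0.04). These 3 had adjusted p-values of 8.8e-05 or smaller and missed the fold threshold. Tnfaip3 (A20), an NF-κB-induced brake on the pathway, was the gene called there, and it was higher with PD03 (0.92, SE 0.06, adjusted p = 4.0e-17). In thrombin against control Tnfaip3 was lower but missed the fold threshold (-0.53, SE 0.06, adjusted p = 1.6e-09). In PD03 against control Relb, named after its values were seen, was called lower at -0.59 (SE 0.08, adjusted p = 3.9e-08), and the call was lost without Control replicate 2 (-0.58) or 3 (-0.57) and without PD03 replicate 1 (-0.56) or 2 (-0.58). Messenger RNA levels do not show the activity of these proteins.

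Among cytokines, receptors and adaptors known to raise these chemokines, listed with the antagonist gene Il1rn and the thrombin receptors, 20 of 23 were tested. The interleukin-1 genes were the 2 called higher in thrombin against control, beside 2.62% of all tested genes, and both came down with PD03. In PD03 against thrombin 1 gene of the list was called higher and 4 lower, beside 9.61% and 6.31% of all tested genes. Il1a was at 32.5 ± 1.95 CPM in the Control group, 83.3 ± 5.49 in the Thrombin group and 23.3 ± 5.38 in the PD03 group (1.36 with thrombin, SE 0.08, adjusted p = 1.6e-17, and -1.85 in PD03 against thrombin, SE 0.09, adjusted p = 1.0e-21). Il1b was scarce, at 0.656 ± 0.256, 1.96 ± 0.536 and 0.813 ± 0.404 CPM (1.57, SE 0.38, adjusted p = 0.0012, and -1.30, SE 0.36, adjusted p = 0.0028). Unlike the 4 chemokines, Il1b had no lower mean with PD03 than in the Control group. Il1rn, encoding the natural antagonist of interleukin-1 receptors, was at 12.01 ± 1.54, 9.78 ± 0.875 and 11.0 ± 0.286 CPM and was called in none of the comparisons. Il1rap, the accessory chain of the interleukin-1 receptor, was lower in PD03 against thrombin (-0.83, SE 0.15, adjusted p = 7.7e-06), as was Tnfrsf1b (-0.72, SE 0.07), named after its values were seen. F2r, the gene for PAR1, was called higher in PD03 against thrombin (0.90, SE 0.04, adjusted p = 1.2e-23). The median log2 fold change of this list was -0.10 in thrombin against control and -0.05 in PD03 against thrombin.

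Regulators of short-lived messenger RNAs, the class to which chemokine messages belong, were tested in 15 of 15. None was called in thrombin against control by edgeR, DESeq2 or limma, beside 2.62% of all tested genes higher and 5.44% lower. In edgeR 8 had an unadjusted p under 0.05. At an adjusted p under 0.05 without regard to size 3 were higher and 4 lower, where 3808 of 13256 tested genes passed. In PD03 against thrombin 1 was called lower, beside 6.31%, and the median was -0.22 beside 0.01. At an adjusted p-value under 0.05 without regard to size 9 were lower, where 6608 of 13256 tested genes passed in either direction. The called gene was Zc3h12a (Regnase-1), an RNase that degrades cytokine messages, at -0.60 (SE 0.05, adjusted p = 1.4e-14), and the call was lost without Thrombin replicate 3 (-0.58) or PD03 replicate 1 (-0.57). Zfp36 (tristetraprolin), which binds AU-rich elements, was at 68.8 ± 11.3 CPM in the Control group, 51.6 ± 19.1 in the Thrombin group and 59.4 ± 6.26 in the PD03 group, with no call in the 3 comparisons. It was called lower in thrombin against control without Thrombin replicate 1 (-0.75). In PD03 against control its relatives Zfp36l2 (-0.71, SE 0.03) and Zfp36l1 (-0.62, SE 0.05, and -0.58 without Control replicate 1, where it was not called) were lower, both named after their values were seen.

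Other secreted factors and adhesion molecules of neutrophil and monocyte recruitment were mixed. Among 13 tested of 18, 2 were called higher and 6 lower in PD03 against thrombin, beside 9.61% and 6.31% of all tested genes, with a median of -0.14 beside 0.01 for all tested genes. In thrombin against control 2 were called higher and 2 lower, beside 2.62% and 5.44%, with a median of 0.435. In PD03 against control 1 was called higher and 6 lower, beside 4.9% and 4.07%, with a median of -0.499. Of those 6, Il6 (-0.78) was not called without Control replicate 1 (-0.57). The colony-stimulating factors, which drive the making and survival of granulocytes, were among the falls. Csf3 (G-CSF) was at 20.7 ± 3.94 CPM in the Control group, 28.5 ± 2.36 in the Thrombin group and 3.50 ± 0.748 in the PD03 group (-3.04 in PD03 against thrombin, SE 0.14, adjusted p = 2.5e-22). Csf2 (GM-CSF) had 23 to 41 counts in each Control library, 45 to 57 in each Thrombin library and 0 in all 3 PD03 libraries, so that it was at least 49.5-fold lower than with thrombin and at least 33.7-fold lower than control, taking a floor of 3 counts over the PD03 group. Lif, a cytokine of the interleukin-6 family, went from 39.0 ± 0.495 to 113 ± 9.30 and 8.49 ± 1.67 CPM (-3.74 in PD03 against thrombin, SE 0.08, adjusted p = 2.8e-33). Il33, an alarmin of the interleukin-1 family, went from 230.2 ± 5.21 to 426 ± 10.9 and 103 ± 1.02 CPM (-2.05, SE 0.04, adjusted p = 3.1e-35). Vcam1, an adhesion molecule for monocytes and lymphocytes, was lower with thrombin (-1.30, SE 0.10, adjusted p = 4.7e-14) and higher in PD03 against thrombin (0.80, SE 0.11, adjusted p = 2.0e-08). The other called genes of PD03 against thrombin, named after their values were seen, were Il6 (-1.33, SE 0.08), Ccl2 (-0.71, SE 0.04) and Selp (1.82, SE 0.20). Lcn2, also named after its values were seen, was called lower in thrombin against control (-0.76, SE 0.04) and in PD03 against control (-0.75, SE 0.04).

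**Figure D4:**
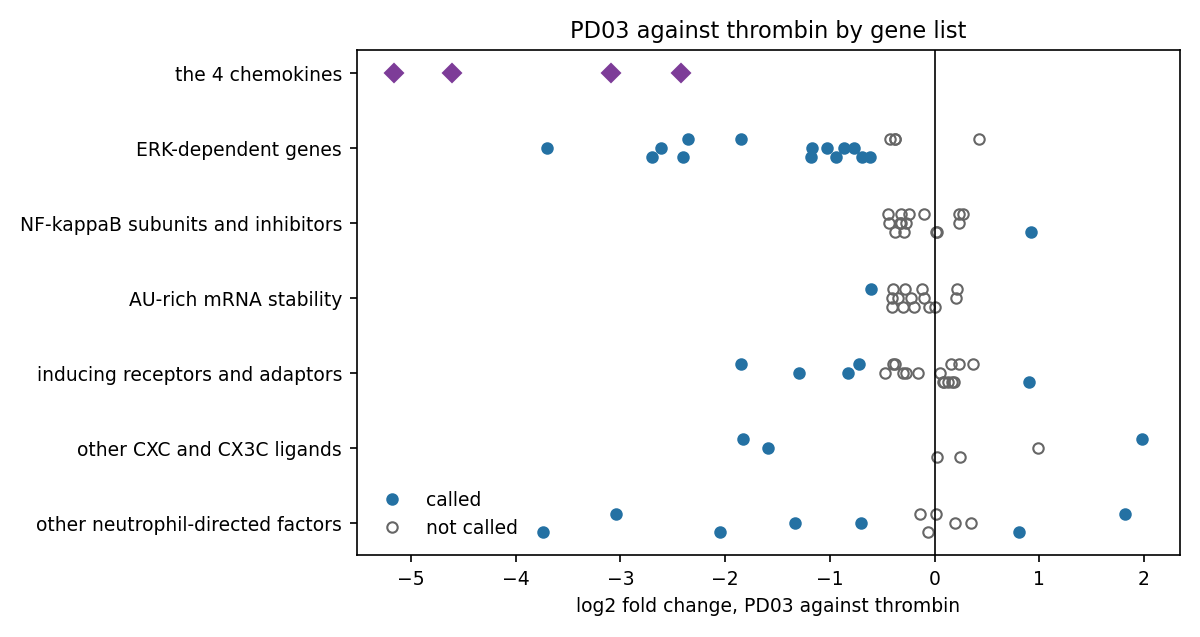
Log2 fold change in PD03 against thrombin for the 4 chemokines (diamonds) and each tested gene of 6 lists (filled, called; open, not called), with Csf2 left out because it had no count in the PD03 group. The 4 chemokines lie between -5.16 and -2.42, most ERK-dependent genes lie below 0 (median -0.98), and the NF-κB genes lie close to 0 (median -0.26).

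The chromosomal neighbours of the chemokines were added after the data were seen, by taking the 5 genes on each side of the cluster and those between its members in RefSeq order. That order is Btc, Areg, Ereg, Epgn, Mthfd2l, Cxcl2, Cxcl1, Cxcl3, Pf4, Ppbp, Cxcl6, Rassf6, Albfm1, Afm, Afp and Alb. Of these 12 neighbours, 5 were tested and 7 had too few counts, among them Pf4 and Ppbp, which lie between Cxcl3 and Cxcl6. Each tested neighbour was called lower in PD03 against thrombin, beside 6.31% of all tested genes. Areg and Ereg, 2 growth factors of the EGF family known to respond to ERK, were at -3.03 (SE 0.39, adjusted p = 1.3e-08) and -1.60 (SE 0.20, adjusted p = 4.0e-09). Rassf6, beside Cxcl6, was at -2.50 (SE 0.22, adjusted p = 9.2e-13), Mthfd2l, beside Cxcl2, at -1.01 (SE 0.20, adjusted p = 5.2e-05) and Albfm1 at -1.43 (SE 0.32, adjusted p = 0.00022).

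Their levels were far below those of Cxcl1 or Cxcl6. Rassf6 was at 2.38 ± 0.530 CPM in the Control group, 6.82 ± 0.371 in the Thrombin group and 1.20 ± 0.201 in the PD03 group, and it rose with thrombin by 1.51 on the log2 scale (SE 0.20, adjusted p = 4.6e-08). Mthfd2l, a mitochondrial folate enzyme, rose by 0.84 (SE 0.20, adjusted p = 0.0011), and its PD03 mean of 2.28 ± 0.142 CPM stood beside 2.56 ± 0.278 in the Control group. Areg, Ereg and Albfm1 were not called with thrombin, and Ereg was called without Control replicate 1 (0.60). In PD03 against control 4 of the 5 were called lower, and for Albfm1 (-1.01, SE 0.33, adjusted p = 0.014) that call was lost without Control replicate 1 (-0.89) and without PD03 replicate 1 (-0.92) or 2 (-0.83).

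**Figure D5:**
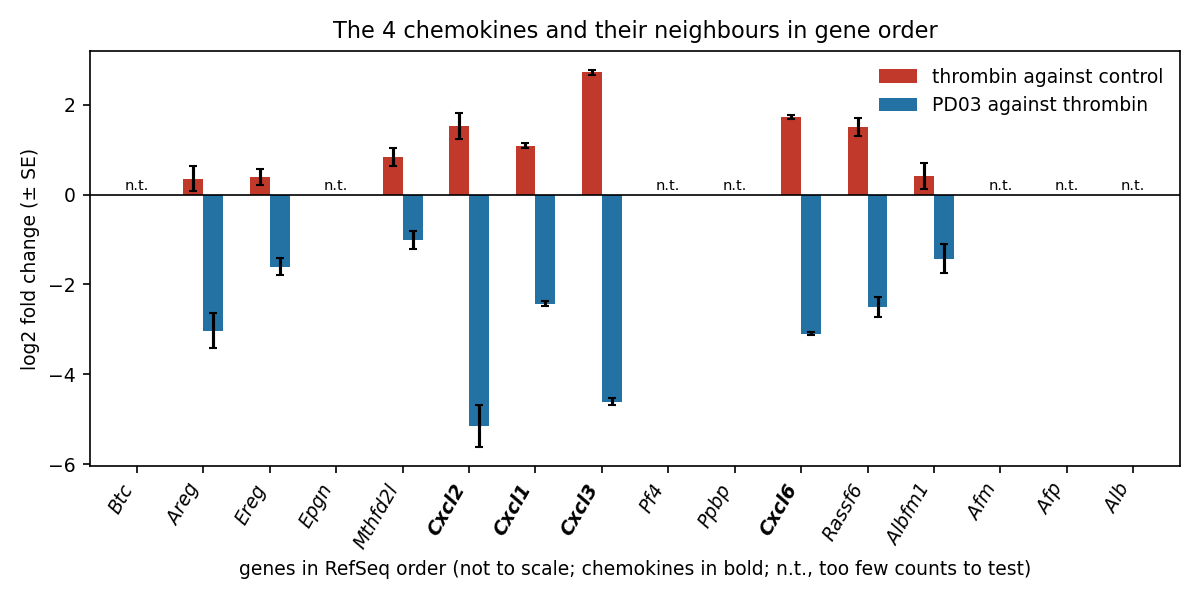
Log2 fold change with its standard error for thrombin against control and PD03 against thrombin, for the 4 chemokines and their 12 neighbours in RefSeq gene order (equal spacing, not to scale; n.t. marks genes with too few counts). All 5 tested neighbours have PD03 bars below 0, from -3.03 for Areg to -1.01 for Mthfd2l, and the thrombin bar of Rassf6 (1.51) is near that of Cxcl6 (1.73).

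Genes of most similar pattern were found over the 9 libraries by the root mean square difference in log2 CPM, with a prior count of 2 added. Each gene's Control mean was subtracted first, and the genes with the smallest difference were taken. For Cxcl6 they were an unnamed gene (ENSRNOG00000069488, 0.119), the transporter gene Slc47a1 (0.187) and a second unnamed gene (ENSRNOG00000064675, 0.255). For Cxcl1 they were Il33 (0.183), Sez6l (0.228) and Ccbe1 (0.230), of which Il33 went from 230.2 to 426 and 103 CPM over the Control, Thrombin and PD03 groups where Cxcl1 went from 258 to 550.06 and 103. Cxcl2 was closest to the neuropeptide receptor gene Adcyap1r1 (0.277), Lif (0.338) and the keratin gene Krt7 (0.368). With 1, 2 and 1 counts of Cxcl2 in the PD03 libraries, these distances depend on the prior count. Cxcl3 had no close match, with Has2 (0.599), which encodes a hyaluronan synthase, Cxcl6 (0.649) and Slc47a1 (0.683) as the nearest. Cxcl6, in the list of Cxcl3, was the only chemokine of the 4 among these genes. All genes here share the same libraries and depth, and the values describe likeness only.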

How the data were processed

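Per the study's methods and labels, reads of polyA messenger RNA were trimmed with fastp, aligned with HISAT2 to Rnor_6.0 and counted with featureCounts, whereas the submitters' processing notes name HISAT2, HTSeq 0.13.5 and mRatBN7.2. Not given in the sources used here: annotation release, strandedness, and treatment of reads with several matches. The authors deposited a raw count and an FPKM value per gene and library, and each FPKM value equals the count divided by the listed library total and a constant gene length. No column of the table was left unmatched to a sample.

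Counts were fitted with edgeR 4.0.16 (R 4.3.3) in 1 quasi-likelihood model of the 9 libraries, after filterByExpr with a minimum count of 10 (13256 genes) and TMM scaling. Benjamini-Hochberg adjustment covered every gene tested, and each standard error came from the F statistic. Shares and levels between genes used FPKM. The biological coefficient of variation was 4.28%. Libraries of the same group were further apart than sampling noise alone would make them, with chi-square values of 1.81 to 3.88 per degree of freedom, and none was merged. Intervals cover counting error only. On simulated data, edgeR recovered 94% of 200 changed genes with 4 false calls, DESeq2 91.5% and limma 92% with none. The simulation gave every gene the same biological coefficient of variation and only changes past the fold threshold, and limma ran there on log2 CPM, not FPKM. These figures therefore do not measure recovery of smaller changes or of genes with a wider spread.

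The 4 chemokines, the 7 gene lists and the rules were chosen with earlier results of these data known. The text names the 4 chemokines, the listed receptors and paralogs with counts, from each other list up to 4 called genes of at least 1 CPM with the largest fold in PD03 against thrombin and up to 2 in thrombin against control, and F2r, Il1b, Il1rn, Rela, Nfkb1, Nfkbia, Nfkbiz and Zfp36 in any case, beside the 3 genes of most similar pattern per chemokine. Neighbours and genes said to be named after their values were seen are outside that rule. A fold change within its standard error is not given for a gene of the lists. Promoters come from RefSeq (GRCr8), whose coordinates belong to that assembly only. Alternatives were DESeq2 1.42.0, limma 3.58.1 on FPKM with 1 or 0.1 added, other scalings, filters and fold thresholds, raw counts for the shares, the replicate number as a block, and removal of single libraries. Figures were drawn with matplotlib 3.10.9.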

Additional observations from a re-analysis of the deposited data

How the results depend on the processing

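No fold change of the 4 chemokines reversed under any alternative, and 185 values stayed within 1 SD of the replicates while 16 moved further. With 1 added to FPKM, Cxcl2 measured 0.96 in thrombin against control, -1.87 in PD03 against thrombin and -0.92 in PD03 against control, Cxcl3 2.65 and -4.46 in the first 2, and Cxcl6 -3.18 and -1.47 in the last 2. With 0.1 added, Cxcl2 measured -4.16 in PD03 against thrombin and -2.72 in PD03 against control, and Cxcl6 -3.19 and -1.48. An added constant shrinks low values by construction, and with 1 added Il1b (-0.55), Vcam1 (0.54), Mthfd2l (-0.57) and Albfm1 (-0.56) were no longer called in PD03 against thrombin, nor Cx3cl1 (-0.34) and Mthfd2l (0.45) in thrombin against control. With library totals as the scaling, Cxcl6 measured -3.19 in PD03 against thrombin and -1.48 in PD03 against control, and the median of all genes in PD03 against control moved from -0.0039 to -0.12. Leaving out 1 library gave Cxcl2 -5.59 to -4.92 in PD03 against thrombin and -4.06 to -3.39 in PD03 against control, where 1 or 2 counts per PD03 library limit it. Cxcl2 did not pass a mean count of 50.

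Raw counts in place of FPKM put the share of Cxcl6 at 63.1%, 68.5% and 63.5% in the Control, Thrombin and PD03 groups, of Cxcl1 at 32.8%, 22.9% and 33.8%, of Cxcl3 at 3.92%, 8.49% and 2.76%, and of Cxcl2 at 0.128% with thrombin, since they carry no length.

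Calls over all genes numbered 1068 in thrombin against control, 2110 in PD03 against thrombin and 1189 in PD03 against control. They became 3808, 6608 and 5289 with no fold threshold, 505, 935 and 519 above a log2 fold change of 1, and 543, 1254 and 676 with 1 added to FPKM. With the replicate block they were 1067, 2103 and 1187. Same-numbered libraries of different groups correlated at -0.046 to 0.052 in their deviations from group means, and differently numbered ones at -0.056 to 0.055. Counting noise enters these deviations, so values near 0 cannot show whether same-numbered libraries share a culture. The main fit did not use the numbers. Zc3h12a, at 0.05 in thrombin against control, measured -0.0029 to 0.10 with 1 library left out.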
